A study of Mus musculus with 12 samples.

Results

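The 10 genes described here belong to the connective tissue of the pancreas and were followed across 4 groups of mice: the fibrillar collagen genes Col1a1, Col1a2, Col3a1 and Col5a1, the matrix protein genes Fn1, Sparc and Dcn, the mesenchymal filament gene Vim, the matrix protease gene Mmp2 and the protease inhibitor gene Timp1. Counted were all probe sets whose platform annotation named one of these 10 genes and no other, which gave 20 of the 22516 probe sets on the array and 10 of the 12335 genes named by the 20240 probe sets with a single symbol. The rule that picks the probe sets uses no measured value. The series compared caerulein with saline in animals lacking Mist1 (Mist1KO) and in wild type animals. Bhlha15 is the gene of Mist1, a transcription factor found in secretory cells such as the acinar cells that make digestive enzymes, and caerulein is an analogue of the hormone cholecystokinin that in repeated high doses causes acute pancreatitis.

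The groups were Mist1KO after caerulein, Mist1KO after saline, wild type after caerulein and wild type after saline, with 3 pancreata in each and 1 array per pancreas, described in the series design as biological replicates. All mice were males of 2 to 4 months, injected hourly for 4 hours and killed at 4 hours, per the labels. The wild type mice were C57BL6, while the strain background of the Mist1KO line is not given in the labels. RNA came from whole pancreas, so a difference between groups can reflect fewer cells of a type or less RNA per cell, and these cannot be told apart.

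Collagens I, III and V form the fibrils of interstitial connective tissue, and fibronectin, SPARC and decorin bind or organise those fibrils. In the pancreas this matrix is made mainly by fibroblasts and by stellate cells, the vitamin A-storing cells that become matrix-producing myofibroblasts in chronic injury. Matrix metalloproteinases such as MMP2 cut matrix proteins, and tissue inhibitors of metalloproteinases such as TIMP1 block these enzymes. Timp1 is also known as a gene that is induced early by cytokines, growth factors and stress in several cell types.

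The labels were checked with Bhlha15, whose brightest probe set read 38.3 to 106.8 on the 6 Mist1KO arrays and 729.5 to 1624.3 on the 6 wild type arrays. Summed signals of 16 fibroblast and stellate cell markers were 1287 to 1430.4 in Mist1KO after caerulein and 1772.5 to 1865 in Mist1KO after saline, and 1558.3 to 1625.2 in wild type after caerulein and 1980.7 to 2295.8 in wild type after saline. They were lower after caerulein in both genotypes with no overlap, in the same direction as the collagens, and in Mist1KO opposite to Timp1. The fall was not particular to these markers. In Mist1KO, smooth muscle and mural cell sums were 1036.6 to 1086.5 after caerulein and 1094.2 to 1150.4 after saline. In wild type they were 1259.2 to 1327.3 and 1539.8 to 1592.8. The median signals of whole arrays also fell without overlap, at 70.6 to 74.8 against 77.9 to 83.2 in Mist1KO. In wild type these medians were 76.3 to 82 against 85.25 to 90.15. Of 13 fibroblast and stellate cell markers tested, 3 (23.1%) fell in Mist1KO, where 14% of all genes fell, and 2 (15.4%) in wild type, where 9.96% did. With single arrays left out these counts were 1 without Mist1KO saline pancreas 2 or any Mist1KO caerulein pancreas, 1 without wild type saline pancreas 1, saline pancreas 3, caerulein pancreas 1 or caerulein pancreas 2, and 0 without wild type caerulein pancreas 3.

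Sums of 14 macrophage and neutrophil markers were 2048.3 to 2156.8 in Mist1KO after caerulein and 1522.9 to 2583.5 in Mist1KO after saline, against 1497.3 to 1833 in wild type after caerulein and 1962.3 to 3037.3 in wild type after saline. Acinar marker sums over 16 genes were 127156.3 to 195718.6 in Mist1KO after caerulein and 217999.2 to 255199.6 in Mist1KO after saline, against 251017.8 to 343768.8 in wild type after caerulein and 306392 to 382103.9 in wild type after saline. The 50 brightest probe sets took 9.71% of all signal in Mist1KO after caerulein, 13.4% in Mist1KO after saline, 15.4% in wild type after caerulein and 17.8% in wild type after saline. Hybridisation spike signals averaged 446 in Mist1KO after caerulein, 914 in Mist1KO after saline, 1074 in wild type after caerulein and 1263 in wild type after saline. Of all genes tested, 10.2% rose and 14% fell with caerulein in Mist1KO, and 8.74% rose and 9.96% fell in wild type. Beside these shares, a count of 1 gene in a short marker list shows no result of its own. Of the other marker lists, with caerulein in Mist1KO, smooth muscle and mural cells had 1 of 8 higher, endothelium 1 of 9 lower, duct cells 1 of 5 higher and 1 lower, islets 1 of 6 lower, and mesothelium, adipocytes and lymphocytes 0 called. In wild type, smooth muscle and mural cells had 1 of 8 lower, endothelium 1 of 9 lower, lymphocytes 1 of 4 lower, duct cells 1 of 5 higher and 1 lower, islets 1 of 6 lower, and mesothelium and adipocytes 0 called. Macrophage and neutrophil markers had 1 of 12 higher in Mist1KO and 3 of 12 lower in wild type, acinar markers 16 of 16 lower in Mist1KO and 1 of 16 in wild type, and 0 hemoglobin genes passed the filter. The acinar count in Mist1KO was 2 to 4 without Mist1KO saline pancreas 1 or 2 or Mist1KO caerulein pancreas 1 or 2, with quantile normalization, with median centring or with no filter. The macrophage and neutrophil count in wild type was 1 without wild type saline pancreas 1 or caerulein pancreas 2, and 6 without saline pancreas 2. No marker was listed at 0, and the part of these shifts in the results was not tested.

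Timp1 moved opposite to the other members that passed. In Mist1KO pancreata, Timp1 rose 6.87-fold after caerulein, while Dcn and Col1a2 fell. In wild type pancreata, Col5a1, Fn1, Sparc, Vim and Mmp2 fell after caerulein, by 1.52-fold to 2.18-fold, and no member rose. Each statement rests on limma's moderated test over all 15716 probe sets tested, with the brightest probe set standing for each gene and a Benjamini-Hochberg adjusted p under 0.05 as the threshold. Differences are given as log2 differences ± SE with 3 arrays per group, on the scale log2(signal + 18.7), which understates the change of dim genes. Folds are these differences turned back from log2, and are not ratios of mean signals.

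The member counts stand beside those of all 9481 genes tested. With caerulein in Mist1KO, 1 of 10 members rose and 2 fell, against 10.2% of all genes that rose and 14% that fell. With caerulein in wild type, 0 of 10 rose and 5 fell, against 8.74% of all genes that rose and 9.96% that fell. The members' median log2 difference was -0.39 with caerulein in Mist1KO, where that of all genes was -0.14, and -0.78 in wild type, where that of all genes was -0.16. Wild type after saline is the baseline of the wild type values, and Mist1KO after saline that of the Mist1KO values. The group means behind these comparisons therefore share no arrays. Their tests are not independent, because all groups were fitted together and the SE of each probe set pools the spread of all groups.

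For Mist1KO against wild type after saline, 0 of 10 members passed limma's threshold in either direction, and 0 of their 18 tested probe sets did, against 6.14% of all genes higher and 6.95% lower. At an unadjusted p under 0.05 there were 2, Col5a1 and Timp1. For Mist1KO against wild type after caerulein, Timp1 alone of the 10 was higher and 0 were lower, against 9.03% of all genes higher and 11.6% lower. The interaction, which is the caerulein difference in Mist1KO minus that in wild type, passed for Timp1 alone and in the upward direction, against 1.48% of all genes upward and 1.87% downward. At an unadjusted p under 0.05 there were 6 of 10 for genotype after caerulein (Col1a1, Fn1, Sparc, Dcn, Vim and Timp1) and 5 of 10 for the interaction (Col5a1, Fn1, Dcn, Vim and Timp1). The share of all genes at that unadjusted p was not counted. The unadjusted counts therefore have no background and show no result of the members as a set.

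Of the 20 probe sets, 18 passed the filter on low signal and were tested. The others were 1 of 3 probe sets of Col5a1, with signals of 5.3 to 53.4, and 1 of 2 of Fn1, with 2.5 to 42.1. Each of the 10 genes kept at least 1 tested probe set.

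**Figure D1:**
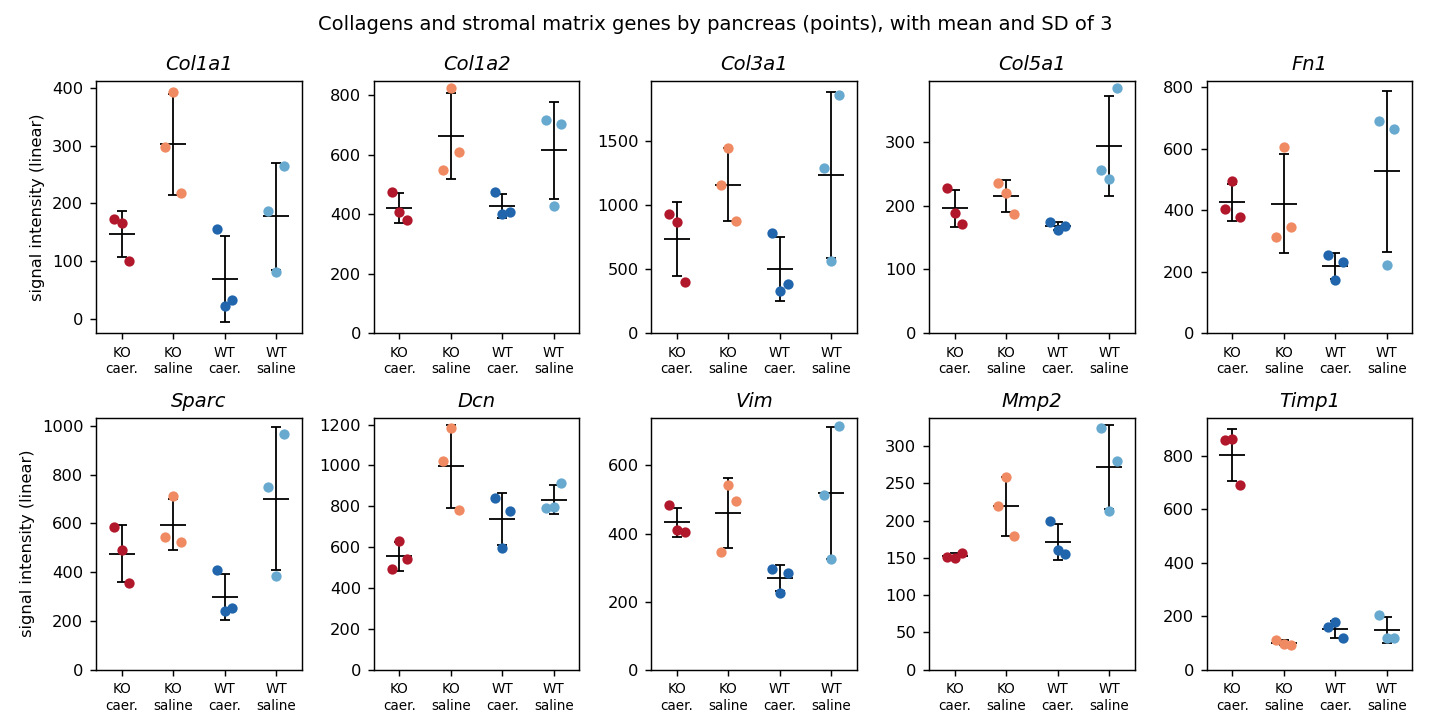
Signal intensity (linear, vertical axes, each gene on its own scale) of the brightest probe set of the 10 genes in Mist1KO (KO) and wild type (WT) pancreata after caerulein (caer.) or saline; points are single pancreata, horizontal lines group means and vertical bars the SD of 3. Timp1 stands between 692.1 and 863.4 in the 3 Mist1KO pancreata after caerulein and at 204.1 or below in the other 9.

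Timp1 gave the largest difference of the 10 genes in Mist1KO. Its single probe set read 858.4, 863.4 and 692.1 in Mist1KO after caerulein, and 112, 96.9 and 93.6 in Mist1KO after saline. In wild type its signals were 158, 177.8 and 117.4 after caerulein and 204.1, 119.1 and 120.5 after saline. Only the 3 Mist1KO pancreata given caerulein were high, and they did not overlap with any other group. In wild type the caerulein and saline values overlapped.

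The group means of Timp1 were 805 ± 97.5 in Mist1KO after caerulein and 101 ± 9.81 in Mist1KO after saline, and 151 ± 30.8 in wild type after caerulein and 148 ± 48.7 in wild type after saline (SD, n = 3 each). Caerulein raised Timp1 in Mist1KO by 2.78 ± 0.20 on the log2 scale (adjusted p = 5.27e-07). In wild type the difference was 0.05 ± 0.20 (adjusted p = 0.892), with a 95% interval of -0.38 to 0.48. The difference between these effects was itself past the threshold, at 2.73 ± 0.28 (adjusted p = 0.000406). Its interaction had rank 6 from the highest among the 9481 genes.

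Set against wild type after caerulein, Timp1 was 4.88-fold higher in Mist1KO after caerulein (2.29 ± 0.20, adjusted p = 5.66e-06), which placed it at rank 20 among 9481 genes. After saline it was at 0.735 of the wild type level in Mist1KO, with a log2 difference of -0.44 ± 0.20 that did not pass (adjusted p = 0.163), although the 3 Mist1KO values lay below the 3 wild type values. With caerulein in Mist1KO its rise was at rank 27. The Timp1 rise kept its call under each alternative tried, with log2 differences of 2.50 to 2.98.

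The promoter of Timp1 is shown because Timp1 was the 1 member that rose, and the promoter of Vim because Vim, also widely used as a mesenchymal marker, fell in wild type and not detectably in Mist1KO. Both windows span 250 bases before to 50 after the annotated start, from RefSeq on GRCm38.p6, plus strand, with matches to the searched motifs in capitals. The Timp1 window is chrX:20869916-20870215 and the Vim window is chr2:13574061-13574360.
Timp1: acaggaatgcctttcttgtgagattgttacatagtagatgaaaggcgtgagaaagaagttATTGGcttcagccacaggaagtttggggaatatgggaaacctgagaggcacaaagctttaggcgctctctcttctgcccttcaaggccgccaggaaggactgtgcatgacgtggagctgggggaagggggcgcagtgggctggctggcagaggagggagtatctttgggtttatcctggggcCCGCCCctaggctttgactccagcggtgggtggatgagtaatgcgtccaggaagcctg
Vim: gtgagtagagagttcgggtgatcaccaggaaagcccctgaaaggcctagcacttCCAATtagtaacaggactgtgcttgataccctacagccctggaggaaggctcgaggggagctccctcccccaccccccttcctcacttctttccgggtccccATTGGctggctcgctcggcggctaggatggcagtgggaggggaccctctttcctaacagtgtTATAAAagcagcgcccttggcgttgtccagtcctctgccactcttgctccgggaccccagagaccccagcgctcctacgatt

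Promoter windows were matched for 6 of the 10 genes, namely Col1a2, Col3a1, Col5a1, Sparc, Vim and Timp1, and motifs were searched on both strands. The CCAAT box (CCAAT) stood in the windows of Col1a2, Timp1 and Vim, and in 37.4% of 32851 promoters of the same length. In the sequences above it reads ATTGG at -190 in Timp1, and CCAAT at -196 and ATTGG at -94 in Vim, counted from the annotated start to the first base of the match. The GC box (GGGCGG) stood in Col1a2, Col5a1 and Timp1, where it reads CCGCCC at -8, and in 35.7% of promoters. The letters of the TATA box (TATAAA) stood in Col3a1 at -117, in Vim at -32, and in 13.6% of promoters. Whether either match works as a TATA box was not tested. The AP-1 motif (TGANTCA, 7.81% of promoters) and the CRE motif (TGACGTCA, 1.79%) matched 0 of the 6 windows. Only exact matches were counted. A near match to the AP-1 pattern, such as TGAGTAA near the end of the Timp1 window, is therefore missed, and absence of such sites was not tested. No base belonged to 2 motifs.

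**Figure D2:**
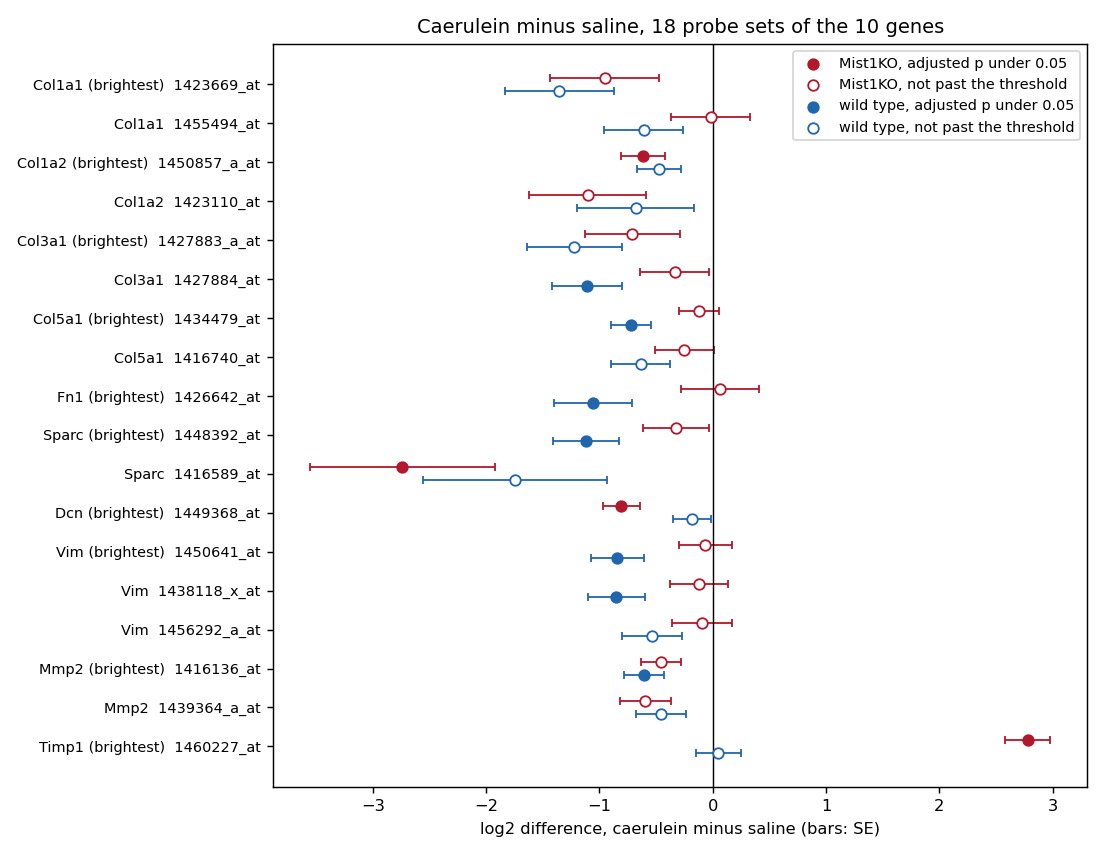
Log2 difference of caerulein minus saline (horizontal axis, bars SE) for the 18 tested probe sets of the 10 genes, with Mist1KO (red) above wild type (blue) in each row and filled points for adjusted p under 0.05. The red Timp1 point at 2.78 stands far right of all others, while 17 of 18 wild type points lie below 0.

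Of the type I and type III collagen genes, by their brightest probe sets, Col1a2 passed in Mist1KO, while Col1a1 and Col3a1 passed in neither genotype and Col1a2 did not pass in wild type. Col1a1, which encodes the main chain of type I collagen, read 172.9, 166.1 and 100.5 in Mist1KO after caerulein and 297.6, 392.3 and 217.5 in Mist1KO after saline. Its wild type values were 155, 21 and 31.6 after caerulein and 186.5, 80.6 and 265.3 after saline. The Mist1KO groups did not overlap, while the wild type groups did, with 1 caerulein pancreas high and 1 saline pancreas low. The log2 difference was -0.95 ± 0.48 in Mist1KO (adjusted p = 0.178) and -1.35 ± 0.48 in wild type (adjusted p = 0.0663), and neither passed. The Mist1KO difference passed with only the Mist1KO groups fitted (adjusted p = 0.0168). The wild type difference passed with the mean of both probe sets (0.0481) and without wild type saline pancreas 2 (0.0262) or wild type caerulein pancreas 1 (0.00303).

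A second probe set of Col1a1 did not pass either, at -0.02 ± 0.35 in Mist1KO (adjusted p = 0.981) and -0.61 ± 0.35 in wild type (adjusted p = 0.248). Its correlation with the brighter one over the 12 arrays was 0.156, the lowest of the members with more than 1 tested probe set.

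Col1a2 encodes the partner chain of type I collagen. Its signals were 476.3, 406.8 and 380 in Mist1KO after caerulein, and 550.3, 825.9 and 610.6 in Mist1KO after saline. They were 475.6, 402.4 and 407.2 in wild type after caerulein, and 717, 427.7 and 702.4 in wild type after saline. All 3 Mist1KO caerulein values were below all 3 Mist1KO saline values, and the wild type groups overlapped through the second saline pancreas. Col1a2 fell 1.53-fold in Mist1KO (-0.62 ± 0.19, adjusted p = 0.033) and gave -0.47 ± 0.19 in wild type (adjusted p = 0.109, and 0.0126 without wild type saline pancreas 2).

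The Col1a2 call in Mist1KO was lost with median centring (adjusted p = 0.0939), without the intensity trend (0.0612), with the mean of both probe sets (0.0827) and with single arrays left out. Its adjusted p was 0.149 without Mist1KO saline pancreas 2, 0.0596 without Mist1KO saline pancreas 3, 0.0936 without Mist1KO caerulein pancreas 2 and 0.0941 without Mist1KO caerulein pancreas 3. The dimmer Col1a2 probe set gave -1.10 ± 0.51 in Mist1KO (adjusted p = 0.143) and -0.68 ± 0.51 in wild type (adjusted p = 0.382), in the same direction as the brighter one.

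Col3a1 encodes type III collagen, which lies beside type I in pliable connective tissue. It read 926.9, 869 and 400.9 in Mist1KO after caerulein and 1154.1, 1448.7 and 876.4 in Mist1KO after saline. Wild type pancreata read 784.7, 327.3 and 386.8 after caerulein and 1289.2, 562.9 and 1858.7 after saline. Both pairs of groups overlapped. The log2 difference was -0.71 ± 0.42 in Mist1KO (adjusted p = 0.253) and -1.22 ± 0.42 in wild type (adjusted p = 0.0571), so neither passed with this probe set. The wild type difference did pass with a filter at the 50th percentile (adjusted p = 0.0496), with quantile normalization (0.0424) and with the mean of both probe sets (0.0288). It also passed without wild type saline pancreas 2 (0.00944), wild type caerulein pancreas 1 (0.0224) or Mist1KO caerulein pancreas 3 (0.0405).

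The dimmer Col3a1 probe set did pass in wild type, where it read 89.7, 89.9 and 43.5 after caerulein against 175.3, 106.2 and 285 after saline. These groups did not overlap, and the fall was 2.16-fold (-1.11 ± 0.30, adjusted p = 0.0207). In Mist1KO the same probe set gave -0.34 ± 0.30 (adjusted p = 0.472). The wild type call was lost with only the wild type groups fitted (adjusted p = 0.0668), and without wild type saline pancreas 1 (0.0516), wild type saline pancreas 3 (0.0875) or wild type caerulein pancreas 3 (0.094).

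Col5a1 encodes a chain of type V collagen, a minor component that helps start and size the fibrils. It read 228.2, 188.5 and 171.4 in Mist1KO after caerulein, and 236.1, 220.3 and 187.2 in Mist1KO after saline. The wild type signals were 174.6, 161.1 and 167.8 after caerulein and 256.2, 241.6 and 384.3 after saline. The wild type groups did not overlap, and the Mist1KO groups did.

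In Mist1KO the Col5a1 difference was -0.12 ± 0.18 (adjusted p = 0.669), while in wild type Col5a1 fell 1.64-fold (-0.72 ± 0.18, adjusted p = 0.0113). The interaction was 0.60 ± 0.25 (adjusted p = 0.243), so the effects were not shown to differ between genotypes. It was the 1 member whose wild type call held under each alternative and without any single array, with adjusted p between 0.00873 and 0.0461. The second tested probe set gave -0.25 ± 0.26 in Mist1KO (adjusted p = 0.536) and -0.64 ± 0.26 in wild type (adjusted p = 0.108).

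Fn1, which encodes the adhesive glycoprotein fibronectin, separated wild type from Mist1KO after caerulein in its raw values. It read 403.3, 493.5 and 378.3 in Mist1KO after caerulein and 311.7, 606.8 and 345.6 in Mist1KO after saline. In wild type it read 252.8, 171.7 and 232.3 after caerulein and 691.2, 222.1 and 663.9 after saline. After caerulein, the 3 Mist1KO values lay above the 3 wild type values. The second wild type saline pancreas was as low as the caerulein pancreata.

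Fn1 gave 0.06 ± 0.35 in Mist1KO (adjusted p = 0.922) and fell 2.08-fold in wild type (-1.06 ± 0.35, adjusted p = 0.0479). The difference between genotypes after caerulein was 0.91 ± 0.35 (adjusted p = 0.0823) and the interaction 1.12 ± 0.49 (adjusted p = 0.267), and neither passed. Without wild type saline pancreas 2 both passed (adjusted p of 0.0107 after caerulein and 0.0201 for the interaction), and the difference after caerulein also passed with only the caerulein groups fitted (0.00759). The wild type call was lost in 8 of 11 alternatives, with adjusted p up to 0.0964. Of the 12 single arrays, leaving out any of 10 ended it, with an adjusted p of up to 0.171 without wild type saline pancreas 1, and it stood without wild type saline pancreas 2 (0.00092) or Mist1KO saline pancreas 2.

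Sparc encodes a collagen-binding protein that helps fibrils assemble. It read 585.6, 489.4 and 354.5 in Mist1KO after caerulein, and 544.9, 713.9 and 522.5 in Mist1KO after saline. Wild type pancreata read 406.9, 238.9 and 251.2 after caerulein and 751.1, 384.8 and 965 after saline. Both pairs of groups overlapped, in wild type through caerulein pancreas 1 and saline pancreas 2.

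Sparc gave -0.32 ± 0.29 in Mist1KO (adjusted p = 0.473) and fell 2.18-fold in wild type (-1.12 ± 0.29, adjusted p = 0.0154). Its interaction was 0.80 ± 0.41 (adjusted p = 0.352). The wild type call was lost with the mean of both probe sets (adjusted p = 0.0938), and without wild type saline pancreas 1 (adjusted p = 0.0557), wild type saline pancreas 3 (0.0682), wild type caerulein pancreas 2 (0.0591) or wild type caerulein pancreas 3 (0.0608).

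A second Sparc probe set passed in Mist1KO and not in wild type. It read 136, 34.2 and 25.2 in Mist1KO after caerulein against 461, 665.9 and 306.7 in Mist1KO after saline, with no overlap. The wild type signals were 313.5, 38.1 and 15.2 after caerulein and 390.4, 67 and 668.5 after saline, with overlap. The fall was 6.68-fold in Mist1KO (-2.74 ± 0.81, adjusted p = 0.0249), and the wild type difference was -1.75 ± 0.81 (adjusted p = 0.157). The Mist1KO call of this probe set was lost without Mist1KO saline pancreas 1 (0.0629), Mist1KO saline pancreas 2 (0.0873), Mist1KO caerulein pancreas 2 (0.0876) or Mist1KO caerulein pancreas 3 (0.0822). Both probe sets pointed down in both genotypes, and which genotype passed depended on the probe set.

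Dcn, which encodes decorin, a small leucine-rich proteoglycan that coats collagen fibrils and binds TGF-beta, passed in Mist1KO and not in wild type, as Col1a2 did. It read 492.2, 632.3 and 543 in Mist1KO after caerulein and 1021.9, 1183.5 and 780 in Mist1KO after saline. In wild type it read 840.6, 594.5 and 779.4 after caerulein and 789.6, 794.6 and 913.5 after saline. Every Mist1KO caerulein value was below every Mist1KO saline value, and the wild type groups overlapped.

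Dcn fell 1.75-fold in Mist1KO (-0.81 ± 0.17, adjusted p = 0.00283) and gave -0.18 ± 0.17 in wild type (adjusted p = 0.477). The Mist1KO call held under each alternative and without any single array, with adjusted p between 0.00129 and 0.0175. None of these scaled the arrays to the hybridisation spikes, which averaged 446 in Mist1KO after caerulein and 914 in Mist1KO after saline. The interaction was -0.63 ± 0.23 and did not pass (adjusted p = 0.188). Dcn was thus called in Mist1KO alone, but its effects were not shown to differ between genotypes.

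Vim encodes vimentin, the intermediate filament of mesenchymal cells that also appears in injured epithelium. It read 482.3, 411 and 405.8 in Mist1KO after caerulein, and 345.7, 543.1 and 494.6 in Mist1KO after saline. Wild type pancreata read 297.1, 224.5 and 284.9 after caerulein and 513.9, 326.6 and 715.4 after saline. The wild type groups did not overlap, and after caerulein all 3 Mist1KO values lay above the wild type values.

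Vim gave -0.07 ± 0.23 in Mist1KO (adjusted p = 0.872) and fell 1.80-fold in wild type (-0.84 ± 0.23, adjusted p = 0.0218). Mist1KO against wild type after caerulein gave 0.66 ± 0.23 (adjusted p = 0.0642), and the interaction was 0.78 ± 0.33 (adjusted p = 0.252). The difference after caerulein passed with median centring (adjusted p = 0.0413), with only the caerulein groups fitted (0.0164), with the mean of all Vim probe sets (0.0426) and without wild type saline pancreas 2 (0.0222) or 3 (0.0315). The 2 dimmer probe sets gave -0.12 ± 0.25 and -0.10 ± 0.26 in Mist1KO, and -0.85 ± 0.25 (adjusted p = 0.031) and -0.54 ± 0.26 (adjusted p = 0.178) in wild type. The second probe set lost its wild type call with quantile normalization (adjusted p = 0.05003), median centring (0.0784) or only the wild type groups fitted (0.0621), and without wild type saline pancreas 1 (0.0985), wild type saline pancreas 3 (0.102) or wild type caerulein pancreas 2 (0.123). The wild type call of the brightest probe set was lost with median centring (adjusted p = 0.0546), with only the wild type groups fitted (0.0571), and without wild type saline pancreas 1 (adjusted p = 0.0606), wild type saline pancreas 3 (0.0883) or wild type caerulein pancreas 2 (0.0803).

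Mmp2 encodes gelatinase A, a protease that cuts denatured collagen and basement membrane collagen. It read 151.8, 149.8 and 156.9 in Mist1KO after caerulein and 219.5, 258.9 and 178.8 in Mist1KO after saline. The wild type signals were 199.6, 160.4 and 154.9 after caerulein and 324.7, 212.7 and 280.6 after saline. Neither pair of groups overlapped, with caerulein below saline in both genotypes.

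The Mmp2 difference of -0.46 ± 0.18 in Mist1KO did not pass (adjusted p = 0.0768; 0.0114 with the mean of both probe sets, 0.0496 without wild type saline pancreas 2 and 0.0493 without Mist1KO saline pancreas 3), while Mmp2 fell 1.52-fold in wild type (-0.60 ± 0.18, adjusted p = 0.0278). The interaction was 0.15 ± 0.25 (adjusted p = 0.835). The second probe set gave -0.59 ± 0.22 in Mist1KO (adjusted p = 0.0691) and -0.45 ± 0.22 in wild type (adjusted p = 0.175). The wild type call was lost with median centring (adjusted p = 0.0862), with only the wild type groups fitted (0.071), and without wild type saline pancreas 1 (adjusted p = 0.11), wild type saline pancreas 3 (0.0734), wild type caerulein pancreas 2 (0.0801) or wild type caerulein pancreas 3 (0.0951).

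The size of the wild type group of falling genes depended on single arrays. It was 1 of 10, namely Col5a1, without wild type saline pancreas 1, wild type saline pancreas 3 or wild type caerulein pancreas 2, and 2, Col5a1 and Vim, without wild type caerulein pancreas 3. It was 8 of 10 without wild type saline pancreas 2, when Col1a1, Col1a2 and Col3a1 joined the 5. The median caerulein difference of all probe sets was -0.13 in Mist1KO and -0.14 in wild type as deposited, and -0.01 in both with each array centred on its median. After that centring Col5a1 and Sparc passed in wild type, and of all calls 59.7% were higher in Mist1KO (43.9% as deposited) and 67.8% in wild type (48.5% as deposited).

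**Figure D3:**
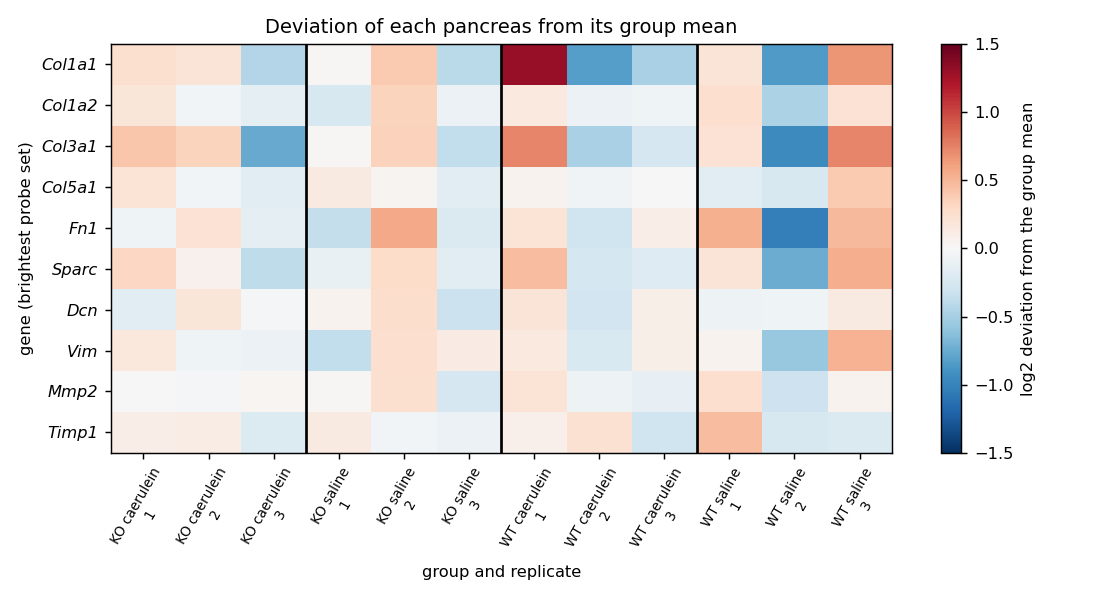
Log2 deviation of each pancreas from the mean of its group (colour scale) for the brightest probe set of the 10 genes (down the page) and the 12 pancreata (across, KO for Mist1KO and WT for wild type). In wild type saline pancreas 2, 9 of 10 genes were the lowest of their group, and in wild type caerulein pancreas 1, 9 of 10 were the highest.

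Pancreata of 1 group differed in the same direction for most members. Wild type saline pancreas 2 had the lowest signal of its group for 9 of the 10 genes, with Col5a1, Fn1, Sparc, Vim, Mmp2 and the other 3 collagen genes all among them. Wild type caerulein pancreas 1 had the highest for 9, Mist1KO saline pancreas 2 the highest for 8, and Mist1KO caerulein pancreas 3 the lowest for 8. These are single animals, and what set them apart was not tested.

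As a description over the 12 arrays, 8 of the members varied together around their group means. Among the 28 pairs of Col1a1, Col1a2, Col3a1, Col5a1, Fn1, Sparc, Vim and Mmp2, Pearson's r of these deviations ran from 0.337 to 0.973, with a median of 0.738. The 8 pairs of Dcn with those genes ran from 0.288 to 0.621. Timp1 was the exception, with r of -0.199 to 0.488 in its 9 pairs. The arrays share scaling and RNA source, and no p is given.

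Over the 12 arrays without removing group means, Timp1 ran opposite to Dcn, with r = -0.80, and gave 0.18 with Fn1, the highest of its 9 pairs. The genes outside the 10 whose log2 signal was most like that of Timp1 were Cnn3 (r = 0.975), Triobp (0.966), Arpc4 (0.966), Rab11fip5 (0.962), Il4ra (0.955) and Nfatc1 (0.954). The genes most like the mean of standardised Col1a1, Col1a2 and Col3a1 were Coq3 (r = 0.939), Pdrg1 (0.920), Nudt2 (0.920), Uap1 (0.906), Hdac2 (0.904) and Ublcp1 (0.897). Sparc reached 0.947 with that collagen mean, Vim 0.815 and Timp1 -0.262. All of these are over 12 arrays and are descriptions.

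Other matrix genes were counted in 7 lists written with earlier results of these data known. Their counts stand against the shares of all genes called, which were 10.2% higher and 14% lower in Mist1KO, and 8.74% higher and 9.96% lower in wild type. Lists with a share near these show no result of their own. The share of all genes at an unadjusted p was not counted, so the unadjusted counts of lists have no background. Interstitial collagens outside the 10 had 0 of 8 called with caerulein in Mist1KO (1 at an unadjusted p under 0.05), and 3 of 8 lower in wild type, among them Col6a3 (-0.51 ± 0.15, adjusted p = 0.0259), a chain of microfibrillar type VI collagen, and Col5a2 (-0.60 ± 0.18, adjusted p = 0.0302), which partners Col5a1. Their fall was lost with median centring and without wild type saline pancreas 3, wild type caerulein pancreas 2 or wild type caerulein pancreas 3, each of which left 0 of 8. Basement membrane genes had 0 of 17 called in Mist1KO (3 at an unadjusted p under 0.05) and 4 of 17 lower in wild type, led by the laminin chain genes Lama2 (-1.08 ± 0.25, adjusted p = 0.00836) and Lama3 (-0.97 ± 0.23, adjusted p = 0.01). That wild type count was 2 to 4 under the alternatives and 3 to 4 without single arrays.

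Genes of collagen folding and crosslinking had 2 of 17 higher and 1 lower in Mist1KO, and 1 higher and 2 lower in wild type. Tgm2, a transglutaminase that crosslinks matrix proteins, rose in both, by 0.71 ± 0.14 in Mist1KO (adjusted p = 0.00251) and 0.51 ± 0.14 in wild type (adjusted p = 0.0245). The wild type call was lost without any 1 wild type saline pancreas or without wild type caerulein pancreas 1, with adjusted p up to 0.0909. Proteoglycans, elastic fibre and matricellular genes had 1 of 30 higher and 4 lower in Mist1KO, against 0 higher and 5 lower in wild type. In percent of the list this is 3.33% higher and 13.3% lower in Mist1KO, against 10.2% and 14% of all genes, and 0% higher and 16.7% lower in wild type, against 8.74% and 9.96%. Thbs1, which encodes thrombospondin-1, an activator of latent TGF-beta, rose by 1.66 ± 0.34 in Mist1KO (adjusted p = 0.00263), while Lum (-0.68 ± 0.21, adjusted p = 0.028) and Ogn (-0.67 ± 0.19, adjusted p = 0.0216), small proteoglycans related to decorin, fell there. Both lost their call with median centring (adjusted p of 0.0815 for Lum and 0.0721 for Ogn) and without Mist1KO saline pancreas 1, Mist1KO saline pancreas 2 or any Mist1KO caerulein pancreas.

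Proteases and inhibitors outside the 10 had 1 of 19 higher and 2 lower in each genotype. Adamts4, a protease that cuts proteoglycans, rose in Mist1KO by 1.57 ± 0.33 (adjusted p = 0.00315). Its Mist1KO saline signals were dim, at 18.1, 51.8 and 14.3. They were called lower than those of wild type after saline (-1.15 ± 0.33, adjusted p = 0.0359). After caerulein its mean signals were 119 in Mist1KO and 111 in wild type. Timp2, a relative of Timp1, fell by 0.71 ± 0.23 on the log2 scale in Mist1KO (adjusted p = 0.0393) and by 0.77 ± 0.23 in wild type (adjusted p = 0.0319), although of 4 further Timp2 probe sets 1 passed in Mist1KO and 0 in wild type. With the mean of all Timp2 probe sets the adjusted p was 0.219 in Mist1KO and 0.163 in wild type. The Mist1KO call was also lost without Mist1KO saline pancreas 2 or 3 or any Mist1KO caerulein pancreas, and the wild type call without wild type saline pancreas 2 or 3 or wild type caerulein pancreas 2. Over all alternatives and single arrays left out, the number of called genes in Mist1KO ran from 2 to 7 for the proteoglycan list and 1 to 4 for the protease list, and in wild type from 0 to 3 for the folding list, 2 to 7 for the proteoglycan list and 1 to 3 for the protease list.

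**Figure D4:**
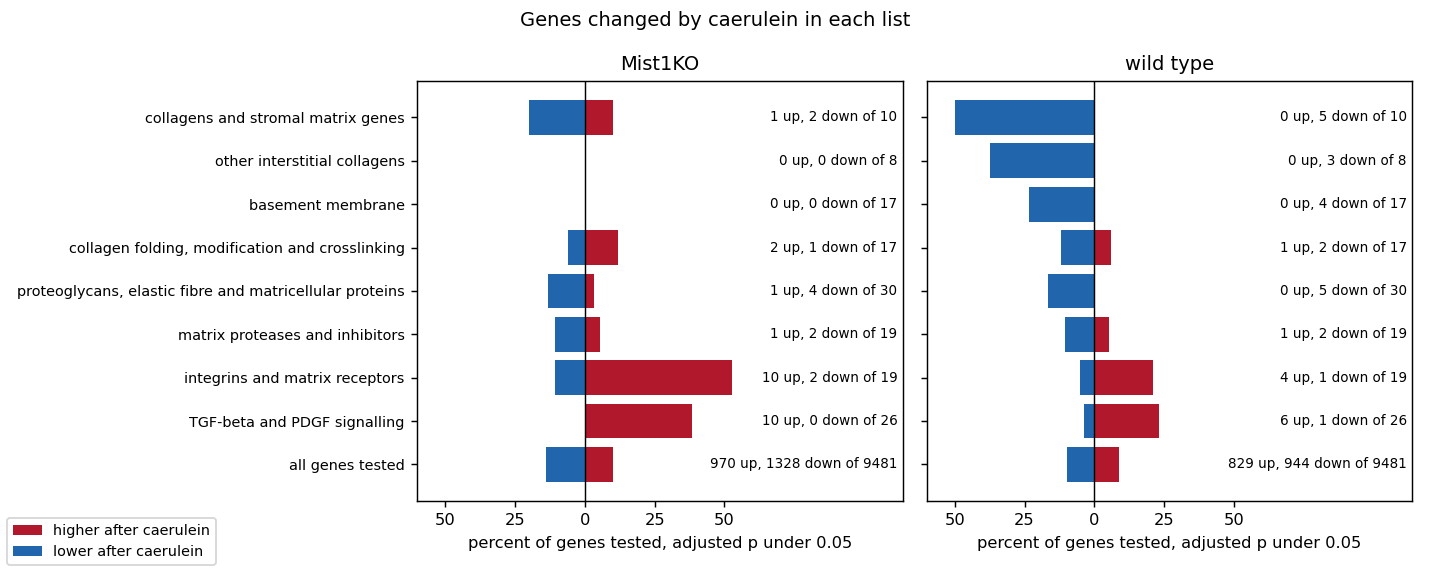
Share of genes higher (red, right of 0) or lower (blue, left of 0) after caerulein in Mist1KO (left panel) and wild type (right panel), in percent of the genes tested in the 10-gene set, 7 other matrix lists and all genes; numbers at the right give the counts. Integrins and matrix receptors (10 of 19) and TGF-beta and PDGF signalling (10 of 26) have the longest red bars, both in Mist1KO.

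Integrins and matrix receptors, through which cells hold the matrix, included many that rose. In Mist1KO 10 of 19 rose and 2 fell, and in wild type 4 rose and 1 fell. Sdc1, a cell surface proteoglycan of epithelia, rose by 3.32 ± 0.18 in Mist1KO (adjusted p = 8.73e-08) and by 2.11 ± 0.18 in wild type (adjusted p = 3.2e-06). Itga6, an epithelial laminin receptor chain, rose by 2.41 ± 0.23 in Mist1KO and 2.90 ± 0.23 in wild type.

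In the interaction, 6 of the 19 receptor genes were called and all 6 were upward, against 1.48% of all genes upward and 1.87% downward. Among them were Cd44 (1.46 ± 0.30, adjusted p = 0.0195) and Itgav (1.22 ± 0.25, adjusted p = 0.0169). Cd44 encodes a hyaluronan receptor and Itgav the alpha chain of fibronectin and vitronectin receptors. With the mean of all probe sets of a gene, Cd44 (adjusted p = 0.073) and Itgav (0.0613) did not pass. That count of 6 fell to 1 without Mist1KO saline pancreas 3 or Mist1KO caerulein pancreas 1, to 2 without Mist1KO caerulein pancreas 2, and to 3 without wild type saline pancreas 2, wild type saline pancreas 3, wild type caerulein pancreas 1 or Mist1KO saline pancreas 2.

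The list of TGF-beta and PDGF signalling genes mixes ligands, receptors and inhibitors, so its counts give no direction of signalling. It had 10 of 26 higher and 0 lower in Mist1KO, and 6 higher and 1 lower in wild type. The largest rise of the list in both genotypes was that of Tgif1. It was 2.50 ± 0.41 in Mist1KO (adjusted p = 0.000528) and 3.28 ± 0.41 in wild type (adjusted p = 8.62e-05). Tgfb1, the ligand TGF-beta 1, read 590.8, 576.4 and 355.1 in Mist1KO after caerulein against 116.7, 137.5 and 81.6 in Mist1KO after saline. In wild type it read 91.5, 80 and 122.9 after caerulein against 98.5, 88.2 and 91 after saline. Like Timp1, it was high in the 3 Mist1KO caerulein pancreata alone. The receptor count in Mist1KO stayed between 10 and 12 called genes and that of this signalling list between 7 and 12 under every alternative, while in wild type they ran from 3 to 7 and from 3 to 8. The Tgfb1 rise in Mist1KO was 2.00 ± 0.22 (adjusted p = 1.94e-05), and the interaction was 1.94 ± 0.31 (adjusted p = 0.00495). This was the single interaction call of that list of 26, against 1.48% of all genes upward.

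**Figure D5:**
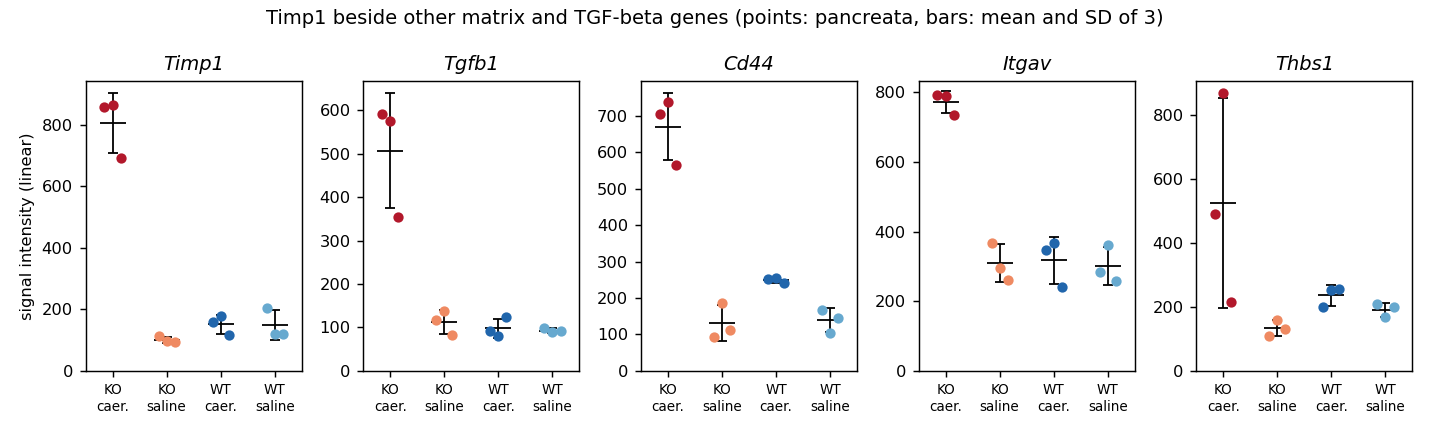
Signal intensity (linear, each gene on its own scale) of Timp1, Tgfb1, Cd44, Itgav and Thbs1 in Mist1KO (KO) and wild type (WT) pancreata after caerulein (caer.) or saline; points are single pancreata, horizontal lines group means and vertical bars the SD of 3. For each gene but Thbs1, all 3 Mist1KO caerulein pancreata lie above the other 9, and for Thbs1 1 of them lies at 216.5, within the range of wild type.

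Between genotypes, matrix genes outside the 10 did pass. Pcolce, an enhancer of procollagen processing, was higher in Mist1KO than in wild type after saline (1.09 ± 0.19, adjusted p = 0.00279, and 0.0578 with the mean of its probe sets) and after caerulein (1.26 ± 0.19, adjusted p = 0.000461). The other tested Pcolce probe set passed in neither comparison. Vtn, which encodes the adhesive protein vitronectin, was higher in Mist1KO after saline (1.26 ± 0.16, adjusted p = 0.000279) and after caerulein (1.14 ± 0.16, adjusted p = 0.000248). Ddr2, a receptor tyrosine kinase for fibrillar collagen, was lower in Mist1KO after saline (-1.48 ± 0.20, adjusted p = 0.000471). Of the 8 other interstitial collagens, 2 were lower in Mist1KO after saline, against 6.95% of all genes. These were Col5a2 (-0.71 ± 0.18, adjusted p = 0.0193) and Col6a3 (-0.62 ± 0.15, adjusted p = 0.0157). Both calls were lost without Mist1KO saline pancreas 3, that of Col5a2 also without wild type saline pancreas 1 or 3. Among the 10 genes after saline the differences lay between -0.44 for Timp1 and 0.80 for Col1a1.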

How the data were processed

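Whole-pancreas RNA of 12 mice was hybridised to 12 Affymetrix mouse arrays, 1 per pancreas. Sample titles gave genotype and treatment, and the labels state about 10 µg of labelled total RNA. The values deposited by the authors are linear signal intensities. Their 2% trimmed means ran from 151.084 to 151.368, so a common scaling had been applied. How probes were summarised, to which target arrays were scaled, and whether probe sets were called present were not stated in the labels or headers. Precision is limited by the number of arrays.

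The members, the gene lists and the rule for naming list genes were chosen with earlier results of these data known. The rule took, per list and comparison, up to 2 genes with the largest rise and up to 2 with the largest fall among those called, and a selection of these is named. The 7 matrix lists and 11 marker lists held 299 symbols, of which 266 were matched. Of the probe sets, 64 were controls, 20240 had a single gene symbol, 682 several and 1530 none. Before log2 was taken of the deposited intensities, 18.7 was added to each, which is their 20th percentile. Controls and probe sets up to the 30th percentile of mean log2 signal were left out, leaving 15716. Group means were fitted with limma 3.58.1 in R 4.3.3 (lmFit, eBayes with an intensity trend, 8 residual degrees of freedom). Two-sided p-values were adjusted by Benjamini-Hochberg over all probe sets tested. The brightest probe set represented a gene. The fit was tested on simulated data. Alternatives changed the offset, filter, normalization, variance model, groups fitted, probe sets per gene and replicates. Scaling to the hybridisation spikes was not tried. Figures were drawn with matplotlib 3.10.9.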

Additional observations from a re-analysis of the deposited data

Results flagged for a closer look

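The caerulein effect on Timp1 differed between genotypes by the test of the interaction itself, at 2.73 ± 0.28 on the log2 scale (limma, adjusted p = 0.000406). The caerulein difference was 2.78 in Mist1KO, where all 3 caerulein pancreata lay above all 3 saline pancreata, and 0.05 in wild type, where the groups overlapped. The interaction was past the threshold under each alternative tried, with values of 2.46 to 2.92, and without any single array, with values of 2.50 to 2.85. Groups of 3 pancreata are too small for a test of single outlying samples.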

How the results depend on the processing

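With caerulein in wild type, the count of members called was 5, against 2 with median centring and 2 with only the 2 groups compared, Col5a1 and Sparc both times, and ran from 1 to 8 as single arrays were left out. For Mist1KO against wild type after caerulein the count was 1, against 2 with median centring, 3 with only the 2 groups compared and 2 with the mean of all probe sets of a gene, and it ran from 1 to 3 without single arrays. The interaction count of 1 ran from 1 to 2. The counts with caerulein in Mist1KO (3) and for genotype after saline (0) kept within 1.5 times under every alternative. With a replicate block the counts were 3 with caerulein in Mist1KO, 4 with caerulein in wild type (Fn1 lost, adjusted p = 0.0678), 0 after saline, 1 after caerulein and 1 for the interaction. No pairing of samples by replicate number was detected: 0 of 18 pairs of the same number had a correlation of deviations over 0.1, with a range of -0.10 to 0.05. Pairs of different numbers ranged from -0.06 to 0.09. This does not show that pairing was absent, as a weak one could give the same values. Of the values of single member probe sets under alternatives other than leaving out an array, 874 kept direction and side of the threshold, 20 lost the call, 13 gained it and 15 turned sign, and none of those that turned had passed. The sign turned with quantile normalization for the second Col1a1 probe set with caerulein in Mist1KO (0.11), the third Vim probe set with caerulein in Mist1KO (0.0185) and the brightest Col3a1 probe set for Mist1KO against wild type after saline (-0.0341). The sign turned with median centring for the second Col1a1 probe set with caerulein in Mist1KO (0.11), the brightest Col5a1 probe set with caerulein in Mist1KO (0.0001), the second Vim probe set with caerulein in Mist1KO (0.0028), the brightest Vim probe set with caerulein in Mist1KO (0.0552), the third Vim probe set with caerulein in Mist1KO (0.0255), the second Vim probe set for Mist1KO against wild type after saline (0.0303) and the brightest Col1a2 probe set for Mist1KO against wild type after caerulein (0.0574). The sign turned with mean of all probe sets of a gene for the brightest Col3a1 probe set for Mist1KO against wild type after saline (-0.21), the brightest Sparc probe set for Mist1KO against wild type after saline (0.28), the brightest Vim probe set for Mist1KO against wild type after saline (0.0401), the brightest Col1a2 probe set for Mist1KO against wild type after caerulein (0.20) and the brightest Sparc probe set in the interaction (-0.0961). Without single arrays it turned with caerulein in wild type for Timp1 (-0.0696 to 0.28). Without single arrays it turned with caerulein in Mist1KO for the second Col1a1 probe set (-0.28 to 0.28), Fn1 (-0.11 to 0.35), the second Vim probe set (-0.35 to 0.11), the brightest Vim probe set (-0.25 to 0.0586) and the third Vim probe set (-0.22 to 0.10). Without single arrays it turned for Mist1KO against wild type after saline for the brightest Col1a2 probe set (-0.12 to 0.24), the brightest Col3a1 probe set (-0.44 to 0.41), the second Col5a1 probe set (-0.34 to 0.0925), Fn1 (-0.72 to 0.0587), the second Sparc probe set (-0.16 to 1.34), the brightest Sparc probe set (-0.52 to 0.12), the second Vim probe set (-0.28 to 0.0628) and the brightest Vim probe set (-0.41 to 0.14). Without single arrays it turned for Mist1KO against wild type after caerulein for the second Col1a2 probe set (-0.0385 to 0.79), the brightest Col1a2 probe set (-0.11 to 0.0483), the second Sparc probe set (-0.95 to 0.70) and the second Mmp2 probe set (-0.23 to 0.18). Without single arrays it turned in the interaction for the brightest Col1a1 probe set (-0.0127 to 1.05), the second Col1a2 probe set (-0.89 to 0.29), the brightest Col1a2 probe set (-0.27 to 0.0918) and the second Mmp2 probe set (-0.40 to 0.0143). The cause was not tested. Alternatives for list genes and list counts were added after seeing the data. Dim probe sets are limited by their signal over the offset.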
